A study of Mus musculus with 16 samples.

Results

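Mammary adipose tissue from obese mice that lost weight after vertical sleeve gastrectomy (DIO-VSG) was compared with that of obese mice that lost weight on a low-fat diet (DIO-LFD). The comparison used every library labelled with either intervention, 4 DIO-VSG and 4 DIO-LFD, which are 8 of the 16 RNA-Seq libraries of the series. All mice were female C57BL/6N (C57BL/6NCrl in the methods), bought at 8 weeks of age, and each library came from 1 mouse. Mice of both groups had been made obese on a diet with 60% of its energy from fat. DIO-VSG mice then had most of the lateral stomach removed and were fed a low-fat diet. DIO-LFD mice had a sham operation and were moved to the same low-fat diet, so the groups differ in the gastrectomy but not in the final diet. E0771 cells, a mammary carcinoma line from C57BL/6 mice, were injected into the fourth fat pad 22 weeks after the start of the diets, and the tissue measured is the ninth fat pad, on the opposite side, taken at the end of the study. The other libraries, 4 of lean mice kept on the low-fat diet (CON-LFD) and 4 of mice kept on the high-fat diet (DIO-HFD), also had a sham operation and tumor cells, and they enter below as a background and in the shared estimate of spread.

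Sleeve gastrectomy reduces stomach volume and changes the release of gut hormones, whereas a change of diet leaves the stomach intact. The mouse mammary fat pad is made of fat cells that store triglyceride, stromal and vascular cells, milk duct epithelium, immune cells and, in the inguinal pad, a lymph node packed with T and B lymphocytes. RNA from a whole pad mixes all of these, so fewer cells of a type and less RNA per cell cannot be told apart.

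Libraries of the series held 46907377 to 57610899 reads over 23179 listed genes. The 21218 genes that reached 10 normalized counts in 4 or more libraries were tested. Fat cell markers were abundant in both groups, with Adipoq, the fat cell hormone adiponectin, at 68644, 50432, 64592 and 66544 normalized counts in DIO-VSG replicates 1 to 4 and 77441, 61906, 65523 and 82066 in DIO-LFD. Some libraries carried other tissues. Skeletal muscle genes, scored as the mean log2(count + 1) of their list centred on all 16 libraries, reached 5.62 in DIO-LFD replicate 4 and 2.98 in DIO-VSG replicate 2, and red cell genes reached 4.00 in DIO-LFD replicate 1. The part these tissues play in the results below was not tested.

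No gene passed a limma adjusted P value of 0.05 between DIO-VSG and DIO-LFD in the fit of all 16 libraries, so the share called was 0% of 21218, with a smallest adjusted P value of 0.427. At an unadjusted P value of 0.05, 2061 genes passed, of which 913 (4.30% of those tested) were higher and 1148 (5.41%) lower in DIO-VSG. A fit of the 8 libraries alone, which takes its spread from these groups only, gave a different count. There 1533 genes passed the adjusted threshold, 1257 higher in DIO-VSG (5.92% of those tested) and 276 lower (1.30%). Spread within groups differed: the median SD of a gene on the log2 scale was 0.21 in DIO-VSG, 0.26 in DIO-LFD, 0.35 in CON-LFD and 0.38 in DIO-HFD. Counted without a test, all 4 DIO-VSG libraries lay above all 4 DIO-LFD libraries for 2746 genes (12.9%), and below them for 1236 (5.83%). These shares are the background against which the counts of each list stand. The median log2 fold change over all genes was −0.022 and 47.2% of genes were above 0. Below, each group is n = 4, and where 8 values are given the 4 of DIO-VSG come before the 4 of DIO-LFD, each in the order of the replicates. Differences are DIO-VSG minus DIO-LFD on the log2(count + 1) scale, ± SE. They and the limma adjusted P values come from the fit of 16 libraries unless the fit of 8 is named. Because so many genes share an adjusted value, members are also described by whether the groups overlap. The plot of all genes shows both sides of the comparison.

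**Figure D1:**
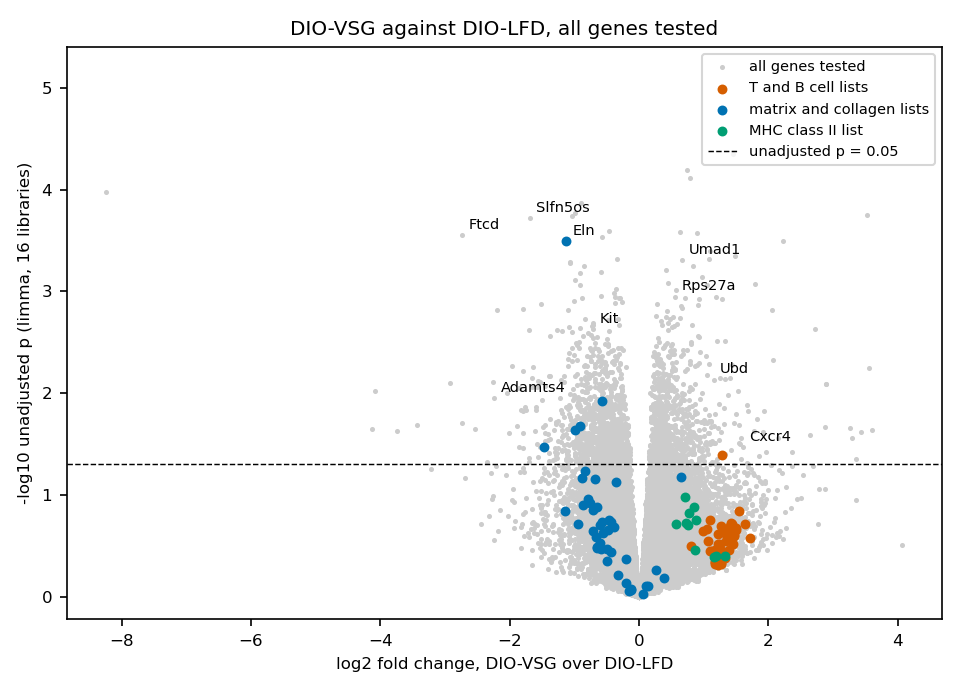
Log2 fold change of DIO-VSG over DIO-LFD (horizontal) against −log10 of the unadjusted limma P value from the fit of 16 libraries (vertical), 1 point per gene tested. T and B cell genes lie to the right, mostly below the dashed line at 0.05, and most matrix and collagen genes lie to the left, with Eln among the smallest P values.

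T and B cell genes were higher in every DIO-VSG library than in every DIO-LFD library. Of 27 T cell genes tested, 27 were higher in DIO-VSG without overlap, against 12.9% of all genes, and their median log2 fold change was 1.43, against −0.022 over all genes. Only 1, Cd247, had an unadjusted P value below 0.05 with 16 libraries, whereas all 27 passed the adjusted threshold with 8, against 5.92% of all genes. Cd3e, a chain of the complex through which the T cell receptor signals, was at 4974, 2868, 3102 and 2988 normalized counts in DIO-VSG and at 961, 981, 1353 and 1883 in DIO-LFD (difference 1.44 ± 1.22, limma adjusted P = 0.609; adjusted P = 0.019 with 8 libraries). DIO-VSG replicate 1 was the highest of the 8, and every DIO-VSG library lay above DIO-LFD replicate 4, the highest of its group. Cd4, the coreceptor of helper T cells, was at 5213, 4981, 4292 and 3948 in DIO-VSG and 1431, 1841, 1963 and 2611 in DIO-LFD (difference 1.26 ± 1.18, limma adjusted P = 0.634). Cd247, the zeta chain of the same complex, was at 2921, 1581, 1881 and 1802 and 614, 612, 997 and 1184 (difference 1.28 ± 0.57, limma adjusted P = 0.51). DIO-VSG replicate 1 again stood highest. Lef1, a transcription factor of naive T cells, had among the largest differences of any abundant gene, with 4738, 2122, 2532 and 2657 in DIO-VSG and 622, 483, 1186 and 1608 in DIO-LFD (difference 1.72 ± 1.48, limma adjusted P = 0.614). Themis, a signalling protein of developing T cells, differed by 1.64 (± 1.20, limma adjusted P = 0.574), and Ms4a4b, a membrane protein of T cells, by 1.62 (± 1.12, limma adjusted P = 0.562).

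B cell genes gave the same separation. All 22 tested were higher in DIO-VSG without overlap, against 12.9% of all genes, with a median of 1.19, and 19 passed with 8 libraries, against 5.92% of all genes, whereas 0 had an unadjusted P value below 0.05 with 16. Ms4a1, which encodes CD20, was at 8794, 7756, 9233 and 7512 in DIO-VSG and 2117, 4874, 4234 and 3635 in DIO-LFD (difference 1.22 ± 1.72, limma adjusted P = 0.75; adjusted P = 0.0237 with 8 libraries). DIO-VSG libraries lay close together, and DIO-LFD replicate 1 was far below the other DIO-LFD libraries. Btk, the kinase that carries the B cell receptor signal, was at 2248, 2294, 2212 and 1979 and 686, 1176, 1219.8 and 1112 (difference 1.09 ± 0.76, limma adjusted P = 0.565). Antibody genes were less even. Of 16 plasma cell and antibody genes, 15 were higher but 2 did not overlap, near the 12.9% of all genes. Their median was 0.93, or 0.50 without DIO-LFD replicate 1. Jchain, which joins antibody units, was at 2857, 6453, 4413 and 2162 in DIO-VSG and 1084, 979, 2507 and 2989 in DIO-LFD. Ighg2b, an IgG heavy chain, was at 6315, 11192, 9456 and 1353 and 2221, 1159.5, 26426 and 2459, and the highest of these 8 values was that of DIO-LFD replicate 3. Tnfrsf17, a survival receptor of plasma cells, differed by 0.43 (± 0.38, limma adjusted P = 0.622).

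The other groups bear on these values. The score of 49 T and B cell genes together was 1.44 to 1.90 in DIO-VSG and −0.27 to 0.67 in DIO-LFD, but it ran from −4.00 to 1.62 in CON-LFD and from −3.41 to 2.14 in DIO-HFD. Ms4a1 ranged from 28.6 to 9711 normalized counts in CON-LFD and from 60 to 12252 in DIO-HFD. Mice of one group on one diet thus differed by more than DIO-VSG and DIO-LFD did, and the DIO-VSG values lay within the range of the other groups. Lymph node genes moved with the score. Of 18 genes of lymph node stroma and homing, 13 were higher and 1 lower without overlap, against 12.9% and 5.83% of all genes. Their median was 1.14, or −0.25 with the score as a covariate. By adjusted P value with 8 libraries 8 were higher and 1 lower, against 5.92% and 1.30% of all genes. Ccl19, a chemokine of lymph node stroma that attracts naive T cells, was at 1243, 898, 805 and 843 in DIO-VSG and 284, 349, 344 and 535 in DIO-LFD (difference 1.34 ± 1.39, limma adjusted P = 0.665). Cxcl13, the follicle chemokine that attracts B cells, overlapped between groups and differed by 0.74 (± 1.39, limma adjusted P = 0.816). Ubd, a ubiquitin-like protein, was at 1652, 1414, 1650.4 and 1477 and 867, 532, 661 and 764 (difference 1.15 ± 0.37, limma adjusted P = 0.509). When the lymphocyte score was a covariate, the difference was 0.91 for Ubd, −0.12 for Ccl19 and −0.62 for Cxcl13. The score did not overlap between DIO-VSG and DIO-LFD, so such values cannot fully tell group and score apart. No source used here says whether the lymph node was taken with the pad, and the part that its amount plays was not tested.

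**Figure D2:**
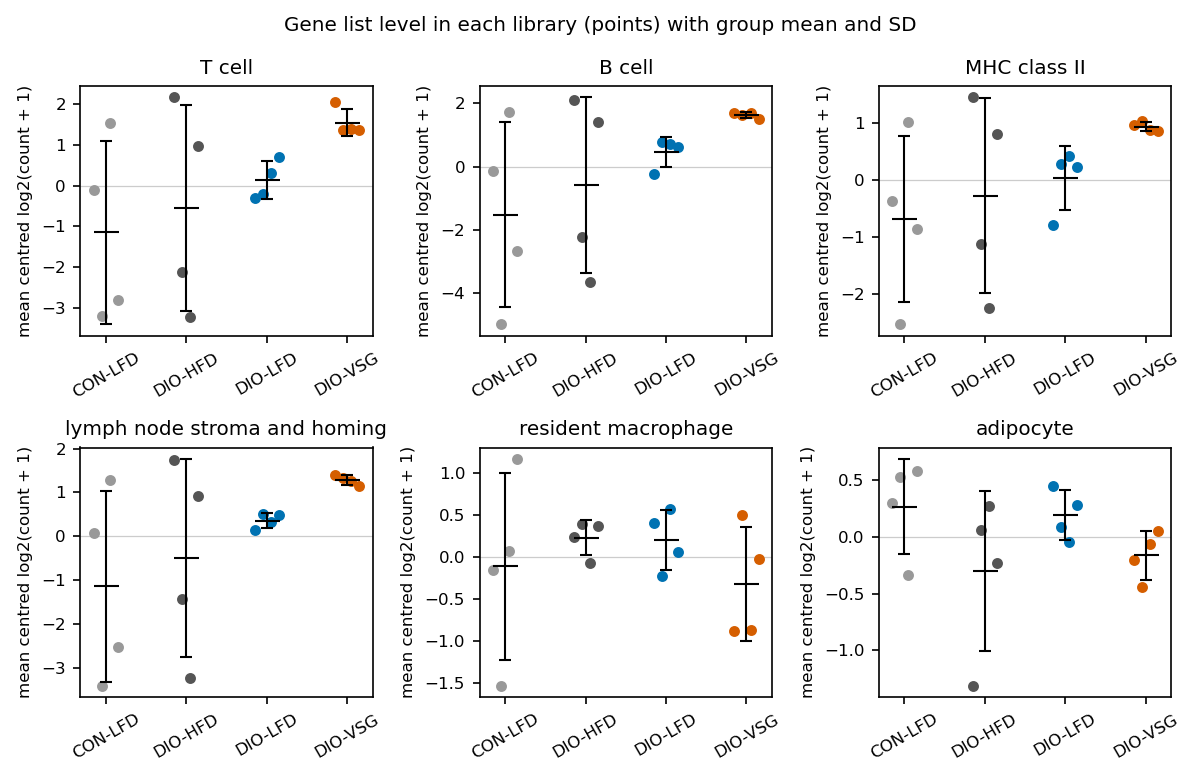
Level of 6 gene lists in each library, as the mean over members of log2(count + 1) centred on the 16 libraries (vertical), by group (horizontal), with bars for mean ± SD of 4 libraries. DIO-VSG lies above DIO-LFD for T cell, B cell, MHC class II and lymph node genes, while CON-LFD and DIO-HFD libraries spread both above and far below them, and macrophage and fat cell levels overlap.

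The MHC class II genes, which present peptides to helper T cells and are made by B cells, dendritic cells and macrophages, were higher in DIO-VSG without overlap for 11 of 11 tested. The share of all genes higher without overlap was 12.9%. The median of the list was 0.85, and 4 passed the adjusted threshold with 8 libraries, against 5.92% of all genes. With 16 libraries 0 had an unadjusted P value below 0.05. Cd74, the invariant chain that escorts class II molecules, was at 94460.3, 99725, 87844 and 88589 in DIO-VSG and 28339.5, 65392, 76186 and 63543 in DIO-LFD (difference 0.76 ± 0.56, limma adjusted P = 0.577). H2-Aa, a class II alpha chain, was at 37847, 39950.0, 34512 and 37074 and 10916, 22891, 29030.5 and 24919 (difference 0.85 ± 0.53, limma adjusted P = 0.541). H2-DMb1, a chain of the molecule that loads peptides, was at 3059, 3017, 2782 and 2699 and 1033, 1903, 2393 and 2040.1 (difference 0.71 ± 0.41, limma adjusted P = 0.529). In all 3, DIO-LFD replicate 1 was the lowest of the 8 libraries by a wide margin, and without it the list's median was 0.55.

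Promoters of class II genes are known for a shared block of short elements, of which the last is an inverted CCAAT box. Because these genes differed in the same direction, the bases before the start of 6 of them are shown (RefSeq, GRCm38.p6, chromosome 17, strand of the gene, 5′ to 3′, the 100 bases that end just before the annotated start), with each GATTGG or its complement CCAATC in capitals.
H2-Aa, chr17:34287824-34287923: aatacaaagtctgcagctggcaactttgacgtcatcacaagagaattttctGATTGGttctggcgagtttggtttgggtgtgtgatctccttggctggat
H2-Eb1, chr17:34305767-34305866: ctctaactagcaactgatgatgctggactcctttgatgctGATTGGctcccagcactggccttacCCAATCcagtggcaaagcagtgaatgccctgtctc
H2-Oa, chr17:34092279-34092378: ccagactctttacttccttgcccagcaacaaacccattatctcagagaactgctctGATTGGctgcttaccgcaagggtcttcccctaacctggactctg
H2-Ob, chr17:34238805-34238904: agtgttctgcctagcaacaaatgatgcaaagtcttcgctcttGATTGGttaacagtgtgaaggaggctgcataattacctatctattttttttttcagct
H2-DMb1, chr17:34153091-34153190: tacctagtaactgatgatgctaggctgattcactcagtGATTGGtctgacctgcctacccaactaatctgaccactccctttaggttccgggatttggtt
H2-DMb2, chr17:34145149-34145248: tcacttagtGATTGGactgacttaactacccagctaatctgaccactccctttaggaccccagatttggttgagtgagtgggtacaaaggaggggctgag
H2-Eb1 holds the letters in both orientations in this stretch, and the other genes hold GATTGG once. Over the 250 bases before the start, on either strand, GATTGG was in 7 of the 8 class II genes with an entry and in 16.6% of all 27025 promoters of the table. It was chosen after the expression values had been seen, as 1 of 4 motifs searched. The longer CTGATTGG was in 3 of the 8 genes and 4.43% of promoters, the shorter ATTGG in 7 and 37.5%, and TGATGCAA, from another element of the block, in 1 and 0.92%. GATTGG and ATTGG are parts of CTGATTGG, so these matches overlap. The octamer ATGCAAAT, an element of immunoglobulin promoters, was also looked for on either strand in the same window. It was in 1 of 15 B cell genes with an entry and in 0 of 6 plasma cell and antibody genes, against 1.81% of all promoters. The match was in Blnk, an adaptor of B cell receptor signalling, shown on its own strand with the octamer's complement in capitals, in a stretch of 100 bases that leaves 50 bases between its end and the start.
Blnk, chr19:40994272-40994371: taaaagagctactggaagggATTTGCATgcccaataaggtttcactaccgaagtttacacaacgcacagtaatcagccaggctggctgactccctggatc
All of these genes were higher in DIO-VSG without overlap.

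Killer lymphocyte and dendritic cell genes were mostly higher in DIO-VSG. Of 18 cytotoxic and NK cell genes, 11 were higher without overlap, against 12.9% of all genes, and 10 passed with 8 libraries, against 5.92% (median 0.85). Nkg7, a granule protein of killer cells, was at 841, 699, 655 and 640.4 in DIO-VSG and 282, 302, 377 and 472 in DIO-LFD (difference 1.00 ± 0.83, limma adjusted P = 0.604). Prf1, the pore protein perforin, differed by 1.10 (± 0.84, limma adjusted P = 0.585), and Klrd1, which encodes the NK receptor CD94, by 1.43 (± 0.99, limma adjusted P = 0.563). Of 12 dendritic cell genes, 6 were higher without overlap, against 12.9% of all genes. The median of these 12 was 0.71, or −0.023 with the lymphocyte score as covariate. Xcr1, a chemokine receptor of cross-presenting dendritic cells, was at 358, 311, 388 and 375 in DIO-VSG and 54.6, 153, 246 and 254 in DIO-LFD, where replicate 1 was again lowest. Flt3, a growth factor receptor of dendritic cells, differed by 1.01 (± 0.99, limma adjusted P = 0.652). Slc7a11, a cystine transporter, and Cxcr4, the receptor for the chemokine CXCL12, were among the 5 abundant genes with the largest differences upward. Slc7a11 was at 1287, 709, 853 and 843 and 205, 294, 269 and 412 (difference 1.65 ± 1.00, limma adjusted P = 0.534; adjusted P = 0.0139 with 8 libraries). Cxcr4 was at 6207, 4985, 6609.8 and 2631 and 2069, 2012, 1241 and 1222 (difference 1.60 ± 0.68, limma adjusted P = 0.509).

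Macrophage genes took the other direction in most members. Of 18 resident macrophage genes 15 were lower, 1 of them without overlap, which is near the 5.83% of all genes, with a median of −0.55 that was −0.36 without DIO-VSG replicate 1. Adgre1, which encodes the macrophage marker F4/80, was at 569, 1726, 600.4 and 1157 in DIO-VSG and 2914, 1384, 1931 and 1377 in DIO-LFD, so DIO-VSG replicates 1, 3 and 4 were below every DIO-LFD library and replicate 2 lay among them. Fcgr1, an antibody receptor of macrophages, was at 155, 484, 178 and 334 and 581, 428, 583 and 319.8 (difference −0.84 ± 0.36, limma adjusted P = 0.509), and Csf1r, the receptor for the main macrophage growth factor, differed by −0.33 (± 0.44, limma adjusted P = 0.735). Of 15 genes of lipid-associated macrophages 11 were lower, 0 without overlap (median −0.24). Trem2, a lipid receptor of these cells, was at 41.5, 207, 35.9 and 97.2 and 156, 72.4, 145 and 139. Cd9, a tetraspanin found on them, differed by −0.35 (± 0.23, limma adjusted P = 0.555), and Itgax, which encodes CD11c and is also made by dendritic cells, by 0.54 (± 0.30, limma adjusted P = 0.521). Some neutrophil genes were high in single libraries. S100a8, a calcium-binding protein that neutrophils hold in bulk, was at 163, 2137, 95.5 and 335 and 601, 105, 82.9 and 156, and its partner S100a9 was at 223, 2905, 165 and 402 and 851, 172, 94.3 and 81.7. DIO-VSG replicate 2 was highest for both, and without it the list's median was −0.27 instead of 0.72. Camp, the antimicrobial cathelicidin, was at 48.8, 58.5, 10.3 and 89.6 and 6.55, 11.9, 0.95 and 9.19 (difference 2.65 ± 1.06, limma adjusted P = 0.509).

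Inflammatory genes did not move as 1 group. Of 20 NF-κB subunits and targets, 9 were higher without overlap, against 12.9% of all genes, and 7 passed with 8 libraries, against 5.92%. The median was 0.37, or 0.046 with the lymphocyte score as covariate and 0.24 without DIO-VSG replicate 2. Nfkb1, the p105/p50 subunit, was at 7775, 8029, 7201 and 7049 and 6018, 6917, 6809 and 6348 (difference 0.20 ± 0.18, limma adjusted P = 0.618). Tnf, the cytokine, overlapped and differed by 0.49 (± 0.57, limma adjusted P = 0.698). Ptgs2, the inducible cyclooxygenase, was lower, with 24.9, 18.9, 14.4 and 43.8 in DIO-VSG and 26.2, 157, 63.8 and 40.9 in DIO-LFD (difference −1.26 ± 0.54, limma adjusted P = 0.509). Interferon-stimulated genes were lower in 14 of 20, 0 without overlap (median −0.29). Ifi27l2a, an interferon-induced mitochondrial protein, was at 14704, 4290.3, 6902 and 8649 and 38480.4, 11746, 17235 and 9035 (difference −1.06 ± 0.44, limma adjusted P = 0.509), and Isg15, a ubiquitin-like antiviral protein, differed by −0.56 (± 0.31, limma adjusted P = 0.523). Without DIO-LFD replicate 2 the median of this list was 0.011. It was −0.46 without DIO-LFD replicate 4, where 4 of the 20 and 1692 of all 21218 genes were lower without overlap. For MHC class I, 9 of 11 genes were higher and 5 did not overlap, against 12.9% of all genes, but differences were small (median 0.19). H2-K1, a class I heavy chain, was at 80099.6, 68174, 66993 and 66522 and 56659, 58620.2, 59355 and 61236 (difference 0.25 ± 0.19, limma adjusted P = 0.576), and B2m, its partner chain, differed by 0.19 (± 0.17, limma adjusted P = 0.617).

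Most fat cell genes had small differences toward lower values in DIO-VSG, and 0 were called in either fit. Of 20 fat cell identity genes 19 were lower, but 1 did not overlap, a share below the 5.83% of all genes. Their median was −0.40, or −0.16 with the lymphocyte score as covariate and −0.24 without DIO-VSG replicate 2. Plin1, the coat protein of the fat droplet and the member that did not overlap, was at 65986, 39525, 65877 and 69399 in DIO-VSG and 74794, 69689, 82408 and 87448 in DIO-LFD (difference −0.41 ± 0.31, limma adjusted P = 0.579), with DIO-VSG replicate 2 below all others. Pparg, the master regulator of fat cell formation, was at 4131, 3079, 6656 and 7194 and 10167, 6146, 7691 and 7926 (difference −0.66 ± 0.33, limma adjusted P = 0.51), and Adipoq differed by −0.20 (± 0.31, limma adjusted P = 0.78). Lep, which encodes the satiety hormone leptin, was at 28191, 29409.6, 9321 and 39535 and 104465, 25285, 25136 and 46975 (difference −0.84 ± 0.61, limma adjusted P = 0.574), with overlap, and without DIO-LFD replicate 1 its difference was −0.40. Angptl4, a secreted inhibitor of lipoprotein lipase, did not overlap, with 10884, 10985, 8979 and 11305 and 25702, 13008, 16135 and 15139.7 (difference −0.69 ± 0.28, limma adjusted P = 0.509).

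Fat breakdown genes were lower in 13 of 15, 3 without overlap, against 5.83% of all genes (median −0.34, or −0.22 without DIO-VSG replicate 2). Npr1, the natriuretic peptide receptor that stimulates lipolysis, was at 2469.7, 3202, 3307 and 3617 in DIO-VSG and 5531, 3932, 5398 and 4688 in DIO-LFD (difference −0.64 ± 0.18, limma adjusted P = 0.509), and it was the member of this list that passed with 8 libraries (adjusted P = 0.0405). Pnpla2, the lipase of the first step, was at 54969, 54696, 72276 and 67101 and 187691, 87983, 67237 and 73007 (difference −0.62 ± 0.34, limma adjusted P = 0.52), and Lipe, the hormone-sensitive lipase, was at 54625, 37699.6, 57640.4 and 62951 and 91674, 63409, 62671 and 65275 (difference −0.42 ± 0.29, limma adjusted P = 0.564). DIO-LFD replicate 1 was the highest for both, and without it the difference of Pnpla2 was −0.29. Fat synthesis genes had no common direction, with 10 of 24 higher (median −0.042, but −0.51 without DIO-LFD replicate 1 and 0.30 without DIO-VSG replicate 1). Fasn, which builds fatty acids, was at 60159, 455880.5, 604113 and 522963 in DIO-VSG and 21753, 694004, 310259 and 685104 in DIO-LFD, and Acaca, which makes its substrate, was at 19535, 83395, 118106 and 128629 and 33002, 128797, 63859 and 116118. One library of each group, replicate 1, was far below the other 3 for Fasn. G6pdx, which supplies NADPH, was at 7911, 11949, 9991 and 20715 and 28806, 16032, 16174 and 23944 (difference −0.80 ± 0.36, limma adjusted P = 0.51). Heat-producing fat cell genes varied widely between DIO-VSG libraries. Ucp1, the uncoupling protein of brown and beige fat, was at 72.6, 15.3, 21836 and 4658 in DIO-VSG and 682, 2098, 873 and 114 in DIO-LFD (difference −0.061 ± 2.03, limma adjusted P = 0.992), and Cidea, a droplet protein of the same cells, was at 486, 286, 7266 and 2863 and 1495, 3432, 861 and 620.1. For Ucp1 2 DIO-VSG values lay below and 2 above all the DIO-LFD values, whereas for Cidea replicate 4 lay among them. Kng2, which encodes a kininogen, differed by −1.19 (± 0.52, limma adjusted P = 0.509). Oxidative phosphorylation genes were lower in 48 of 58, 2 without overlap, by a median of −0.12 that was −0.23 without DIO-VSG replicate 3 and −0.036 without DIO-VSG replicate 2, and the median was 0.029 with the covariate.

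Hormone receptors and signalling genes were lower in most lists. Of 11 receptors for gut hormones, bile acids and FGF hormones, 8 were lower and 3 did not overlap, against 5.83% of all genes. Their median was −0.64, or −0.38 without DIO-VSG replicate 2. Gipr, the receptor of the gut hormone GIP, was at 186, 140.3, 207 and 211 in DIO-VSG and 442, 374, 256 and 278 in DIO-LFD (difference −0.84 ± 0.40, limma adjusted P = 0.51; adjusted P = 0.0511 with 8 libraries). Fgfr1, a receptor used by the FGF hormones, was at 9337, 10894, 7935 and 9865 and 16914, 13913, 16622 and 13033 (difference −0.67 ± 0.23, limma adjusted P = 0.509; adjusted P = 0.022 with 8 libraries). Sctr, the secretin receptor, was at 85.1, 54, 115 and 73.4 and 1289, 154, 201 and 133 (difference −1.76 ± 0.63, limma adjusted P = 0.509), and without DIO-LFD replicate 1 the difference was −1.01. Of 15 insulin and glucose genes 12 were lower and 0 did not overlap (median −0.30, or −0.10 without DIO-LFD replicate 1). Insr, the insulin receptor, was at 9261, 8554, 10526 and 9363 and 24623, 10092, 9266 and 9649.7, so only DIO-LFD replicate 1 stood apart (difference −0.38, or −0.04 without it), and Pik3r1, the regulatory subunit of PI3 kinase, differed by −0.51 (± 0.19, limma adjusted P = 0.509). In the growth hormone and IGF list 12 of 13 were lower (median −0.35). Ghr, the growth hormone receptor, was at 29658, 20919.8, 29554 and 42372 and 100438, 27289, 42341 and 51418 (difference −0.74 ± 0.44, limma adjusted P = 0.532) and differed by −0.39 without DIO-LFD replicate 1. Igf1 differed by −0.41 (± 0.38, limma adjusted P = 0.63) and Igfbp7, an IGF-binding protein, by −0.35 (± 0.13, limma adjusted P = 0.509). Of 10 steroid, thyroid and lactogenic hormone receptors 9 were lower (median −0.50). Thra, a thyroid hormone receptor, differed by −0.59 (± 0.23, limma adjusted P = 0.509), Pgr, the progesterone receptor, by −0.68 (± 0.79, limma adjusted P = 0.697) and Esr1, the estrogen receptor, by 0.15 (± 0.38, limma adjusted P = 0.863).

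Matrix genes were lower in most members. Of 27 matrix proteins and remodelling genes 22 were lower, 4 with an unadjusted P value below 0.05, against 5.41% of all genes. Those without overlap were 2, near the 5.83% of all genes. The median of the 27 genes was −0.58, or −0.52 with the lymphocyte covariate and −0.35 without DIO-LFD replicate 3. Eln, which encodes elastin, was at 2588, 3519, 2301 and 3467 normalized counts in DIO-VSG and 7599, 4013, 8204 and 6587 in DIO-LFD (difference −1.13 ± 0.24, limma adjusted P = 0.427; adjusted P = 0.0316 with 8 libraries). All DIO-VSG values lay below all DIO-LFD values, and DIO-LFD replicate 2 was nearest to them. Fn1, fibronectin, differed by −0.49 (± 0.63, limma adjusted P = 0.724) and Thbs2, a matricellular thrombospondin, by −0.88 (± 0.45, limma adjusted P = 0.51). Collagen genes were lower in 16 of 17, 1 without overlap, near the 5.83% of all genes (median −0.49, or −0.84 without DIO-LFD replicate 1). Col4a1, a basement membrane collagen, was at 26896, 37782, 28541 and 52162 and 100623, 42710.4, 60005 and 91441 (difference −0.99 ± 0.39, limma adjusted P = 0.509). The fibrillar collagens did not separate, since Col1a1 was at 11849, 32451, 20093 and 38072 and 5288, 24268, 54495 and 60437, and Col3a1 at 17071, 34799.8, 40091 and 79778 and 4948, 43127, 107192 and 125850.2. DIO-LFD replicate 1 was the lowest of the 8 for both, and the highest 2 were DIO-LFD replicates 3 and 4. Adipose progenitor genes were lower in 13 of 16 (median −0.46, or −0.26 without DIO-VSG replicate 1). Pdgfra, the progenitor receptor for PDGF, differed by −0.52 (± 0.40, limma adjusted P = 0.588), Anxa3, an annexin, by −0.56 (± 0.22, limma adjusted P = 0.509) and Dpp4, a surface peptidase of early progenitors, by 0.52 (± 0.62, limma adjusted P = 0.702). Blood endothelium genes were lower in 15 of 16, 4 without overlap, against 5.83% of all genes (median −0.42, or −0.22 without DIO-LFD replicate 1). DIO-LFD replicate 1 had the highest score of the 8 libraries (0.82, against −0.17 to 0.042 in the other DIO-LFD libraries and −0.31 to −0.25 in DIO-VSG).

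Most genes of the milk ducts had lower values in DIO-VSG, but few separated the groups. Of 16 luminal genes 15 were lower and of 9 basal genes all 9, with 1 in each list that did not overlap, against 5.83% of all genes, and that passed with 8 libraries. The luminal median was −0.38, or −0.25 without DIO-LFD replicate 2, and the basal median was −0.38, or −0.76 without DIO-LFD replicate 1. Without DIO-LFD replicate 1, 5 basal genes and 1877 of all 21218 genes were lower without overlap. Without DIO-VSG replicate 3, 5 luminal genes and 1632 of all genes were. Kit, a growth factor receptor of luminal progenitors and also of mast cells, was at 3960.2, 4136, 4043 and 3869 in DIO-VSG and 6803, 7616, 7106 and 4998 in DIO-LFD (difference −0.71 ± 0.19, limma adjusted P = 0.509; adjusted P = 0.0191 with 8 libraries). The DIO-VSG values lay within a narrow range below every DIO-LFD value. Trp63, the p63 factor of basal cells, was at 609, 727, 615 and 902 and 982, 1323, 1430.4 and 1077 (difference −0.76 ± 0.31, limma adjusted P = 0.509; adjusted P = 0.0345 with 8 libraries). The keratins were less clear, with Krt8 at −0.65 (± 0.39, limma adjusted P = 0.534), Krt14 at −0.38 (± 0.42, limma adjusted P = 0.683) and Krt5 at −0.30 (± 0.52, limma adjusted P = 0.798), and the adhesion protein Epcam at −0.42 (± 0.30, limma adjusted P = 0.572). In the milk list 6 of 7 genes were lower. Csn3, kappa casein, differed by −0.65 (± 0.52, limma adjusted P = 0.593) and Xdh, needed for milk fat secretion, by −0.60 (± 0.26, limma adjusted P = 0.509). Csn2, beta casein, was near the floor of detection in several libraries, at 59.1, 10.8, 20.5 and 8.58 and 2.18, 19.8, 23.8 and 2.04.

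Proliferation genes leaned upward and early response genes downward. Of 25 cell cycle genes 24 were higher, but 1 did not overlap, against 12.9% of all genes, and 0 passed in either fit (median 0.35). The median was 0.15 without DIO-VSG replicate 2, and 0.66 without DIO-LFD replicate 2, where 10 of 25 did not overlap. In that setting 3323 of all 21218 genes were higher without overlap. Mki67, the proliferation antigen Ki-67, was at 3448, 4076, 3015 and 2176 and 953, 2894, 1564 and 1849 (difference 0.88 ± 0.52, limma adjusted P = 0.529). Top2a, a topoisomerase of dividing cells, differed by 0.55 (± 0.55, limma adjusted P = 0.659) and Mcm2, part of the replicative helicase, by 0.52 (± 0.29, limma adjusted P = 0.523). Of 18 immediate early and heat shock genes 14 were lower, 4 with an unadjusted P value below 0.05, against 5.41% of all genes (median −0.27). Fos, a subunit of the AP-1 factor, was at 1304, 774, 709 and 1424 and 4255, 1524, 1463 and 1405 (difference −0.93 ± 0.41, limma adjusted P = 0.509), with DIO-LFD replicate 1 far above the others. Klf4, a transcription factor of the early response, differed by −0.77 (± 0.24, limma adjusted P = 0.509).

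The genes with the smallest unadjusted P values among those without overlap were then listed, leaving out predicted genes and receptor segments. Of the 10 higher ones, Rps27a, a ribosomal protein fused to ubiquitin, was at 9793, 8875, 8021 and 8674 in DIO-VSG and 5916, 6334, 6077 and 5559 in DIO-LFD (difference 0.56 ± 0.14, limma adjusted P = 0.509; adjusted P = 0.0128 with 8 libraries). Umad1 was at 3008, 2388, 2827 and 2628 and 1451, 1618, 1728 and 2046 (difference 0.67 ± 0.15, limma adjusted P = 0.477). No DIO-LFD library reached the lowest DIO-VSG library for either gene. Rbm3, a cold-induced RNA-binding protein, was higher by 0.58 (± 0.15, limma adjusted P = 0.509). Ythdf3, a reader of methylated RNA, was higher by 0.28 (± 0.07, limma adjusted P = 0.509) and Smc6, a chromosome maintenance protein, by 0.42 (± 0.11, limma adjusted P = 0.509). Spopl and Dcun1d1, which act with cullin ubiquitin ligases, were higher by 0.41 (± 0.094, limma adjusted P = 0.502) and 0.26 (± 0.069, limma adjusted P = 0.509). The remaining ones were Naa30, an N-terminal acetyltransferase, at 0.34 (± 0.088, limma adjusted P = 0.509), Scai, a suppressor of invasion, at 0.52 (± 0.14, limma adjusted P = 0.509), and the noncoding Snhg14 at 0.45 (± 0.11, limma adjusted P = 0.509).

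Among the lower genes, Eln is given above. Pnp, a purine phosphorylase, was at 2283, 2877, 2339 and 2885 in DIO-VSG and 4396, 3698, 4055 and 3330.3 in DIO-LFD (difference −0.58 ± 0.12, limma adjusted P = 0.427). Htr2a, a serotonin receptor, was at 23.9, 27.9, 21.6 and 26.7 and 66.6, 47.6, 50.5 and 50.1 (difference −1.07 ± 0.24, limma adjusted P = 0.477). Both were lower in each DIO-VSG library than in any DIO-LFD library. Prkar1b, a regulatory subunit of protein kinase A, differed by −0.59 (± 0.13, limma adjusted P = 0.504), Apba3, an adaptor protein, by −0.46 (± 0.10, limma adjusted P = 0.427) and Tpgs1, a subunit of tubulin polyglutamylase, by −0.34 (± 0.076, limma adjusted P = 0.477). Slfn5os and Prss23os, listed as opposite strand transcripts, differed by −1.68 (± 0.34, limma adjusted P = 0.427) and −1.07 (± 0.24, limma adjusted P = 0.477), and the sources do not say whether strand was used in counting, so reads of Slfn5 and Prss23 may be among theirs. Ftcd, an enzyme of histidine breakdown, was at 0, 1.8, 1.03 and 2.86 in DIO-VSG and 24, 7.94, 13.3 and 12.3 in DIO-LFD, so its DIO-VSG values were under 3 counts and its fitted difference depends on the pseudocount.

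**Figure D3:**
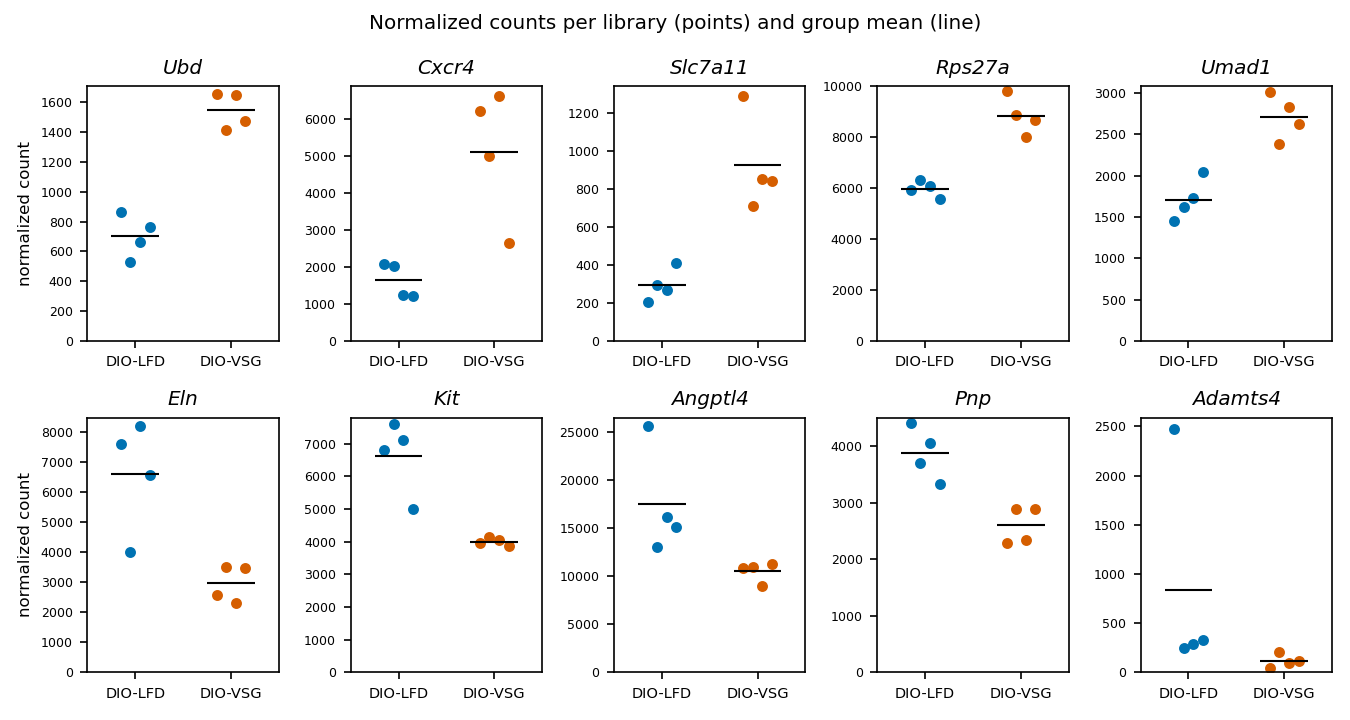
Normalized counts of 10 genes in each of the 4 DIO-LFD and 4 DIO-VSG libraries (points) with the group mean (line), on axes that start at 0. The groups do not overlap for any of them, and DIO-LFD replicate 1 alone lifts the Adamts4 mean.

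Of the abundant genes with the largest lower differences, Adamts4 and Hp were highest in DIO-LFD replicate 1. Adamts4, an aggrecanase, was at 48.8, 205, 97.5 and 115 in DIO-VSG and 2469, 245, 287 and 330.0 in DIO-LFD (difference −2.24 ± 0.77, limma adjusted P = 0.509), and the difference was −1.46 without that library. Hp, the acute phase protein haptoglobin, was at 5479, 8196, 6459.9 and 7332 and 58484, 8382, 14844 and 17821 (difference −1.48 ± 0.57, limma adjusted P = 0.509), and its difference was −0.94 without it. Hcn4, a pacemaker channel, followed other libraries, with 48.8, 94.4, 61.6 and 85.8 and 104, 110.1, 392 and 271 (difference −1.40 ± 0.44, limma adjusted P = 0.509), where DIO-LFD replicates 3 and 4 were the high ones. Other named genes also moved by over 1.5 times without DIO-LFD replicate 1, to −0.54 for Fos, −0.64 for Ifi27l2a, 0.44 for Cd74, 0.55 for H2-Aa, 0.46 for H2-DMb1, 0.75 for Xcr1, 0.33 for Itgax, 0.10 for B2m and 0.091 for Dnmt3a. Without DIO-VSG replicate 2 the difference was −0.22 for Plin1, −0.43 for Pparg, −0.10 for Adipoq and −0.26 for Lipe, and without DIO-LFD replicate 2 it was −0.78 for Ptgs2, −0.17 for Cd9, −0.27 for Epcam and 0.28 for Tnfrsf17. Leaving out 1 library at a time from either group gave ranges of −0.60 to −0.22 for Krt14, −0.69 to −0.14 for Krt5, −1.04 to −0.39 for Csn3, −1.30 to −0.40 for Pgr, 0.013 to 0.26 for Esr1, −0.70 to −0.23 for Igf1, −0.59 to −0.11 for Csf1r, −0.75 to −0.22 for Pdgfra, −0.77 to −0.14 for Fn1, 0.16 to 0.81 for Dpp4, 0.21 to 0.68 for Tnf, 0.24 to 1.00 for Top2a and 0.10 to 0.29 for Dnmt1, with the sign kept in each. Krt8 was at −0.29 without DIO-LFD replicate 2. DIO-LFD replicate 1 also carried the red cell genes named above, whose part in these values was not tested.

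Factors the study followed were looked at last. Of 13 such factors and antioxidant targets of Bach1, 10 were lower and 3 higher, with 2 not overlapping in each direction. Over all genes 12.9% were higher and 5.83% lower without overlap. The list's median was −0.15, or −0.085 without DIO-LFD replicate 1. Bach1, a repressor of antioxidant genes, was at 2600.4, 3239, 2401 and 2688 and 5369.6, 2869, 3417 and 2408 (difference −0.31 ± 0.20, limma adjusted P = 0.546), and its difference was −0.079 without DIO-LFD replicate 1. Its target Nqo1, a quinone reductase, was at 271, 183, 211 and 224 and 443, 309, 414 and 323 (difference −0.74 ± 0.22, limma adjusted P = 0.509; adjusted P = 0.0391 with 8 libraries), and it did not overlap, whereas Slc7a11, given above, lay in the other direction. Fxr1, an RNA-binding protein, differed by 0.05 (± 0.093, limma adjusted P = 0.813). Of 15 DNA methylation genes 12 were higher and 3 did not overlap, against 12.9% of all genes (median 0.14). Zbtb33, a reader of methylated DNA, was at 2088, 1903, 1944 and 1914 and 1588, 1575, 1621 and 1556 (difference 0.31 ± 0.12, limma adjusted P = 0.509; adjusted P = 0.025 with 8 libraries). Dnmt1, the maintenance methyltransferase, and Dnmt3a, a de novo one, differed by 0.18 (± 0.19, limma adjusted P = 0.673) and 0.14 (± 0.12, limma adjusted P = 0.609).

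The plot of list medians gives the 44 lists together. With the score of 49 T and B cell genes as a covariate, 0 genes passed the adjusted threshold in limma (smallest adjusted P = 0.0959), and 791 were higher and 792 lower at an unadjusted P value of 0.05. The covariate is built from T and B cell genes, so its effect on those lists follows from its construction. The score was 1.44 to 1.90 in DIO-VSG and −0.27 to 0.67 in DIO-LFD, without overlap. Values with the covariate thus rest on a slope fitted over all 16 libraries, and group and score cannot be fully told apart. Medians moved from 0.85 to 0.25 for MHC class II and from 0.85 to 0.074 for cytotoxic genes, whereas resident macrophage (−0.55 and −0.63), luminal (−0.38 and −0.39) and matrix (−0.58 and −0.52) medians moved less. Lists outside the lymphoid ones also moved toward 0. Examples are fat cell identity (−0.40 and −0.16), blood endothelium (−0.42 and −0.22), gut hormone and bile acid receptor (−0.64 and −0.35) and collagen genes (−0.49 and −0.32).

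**Figure D4:**
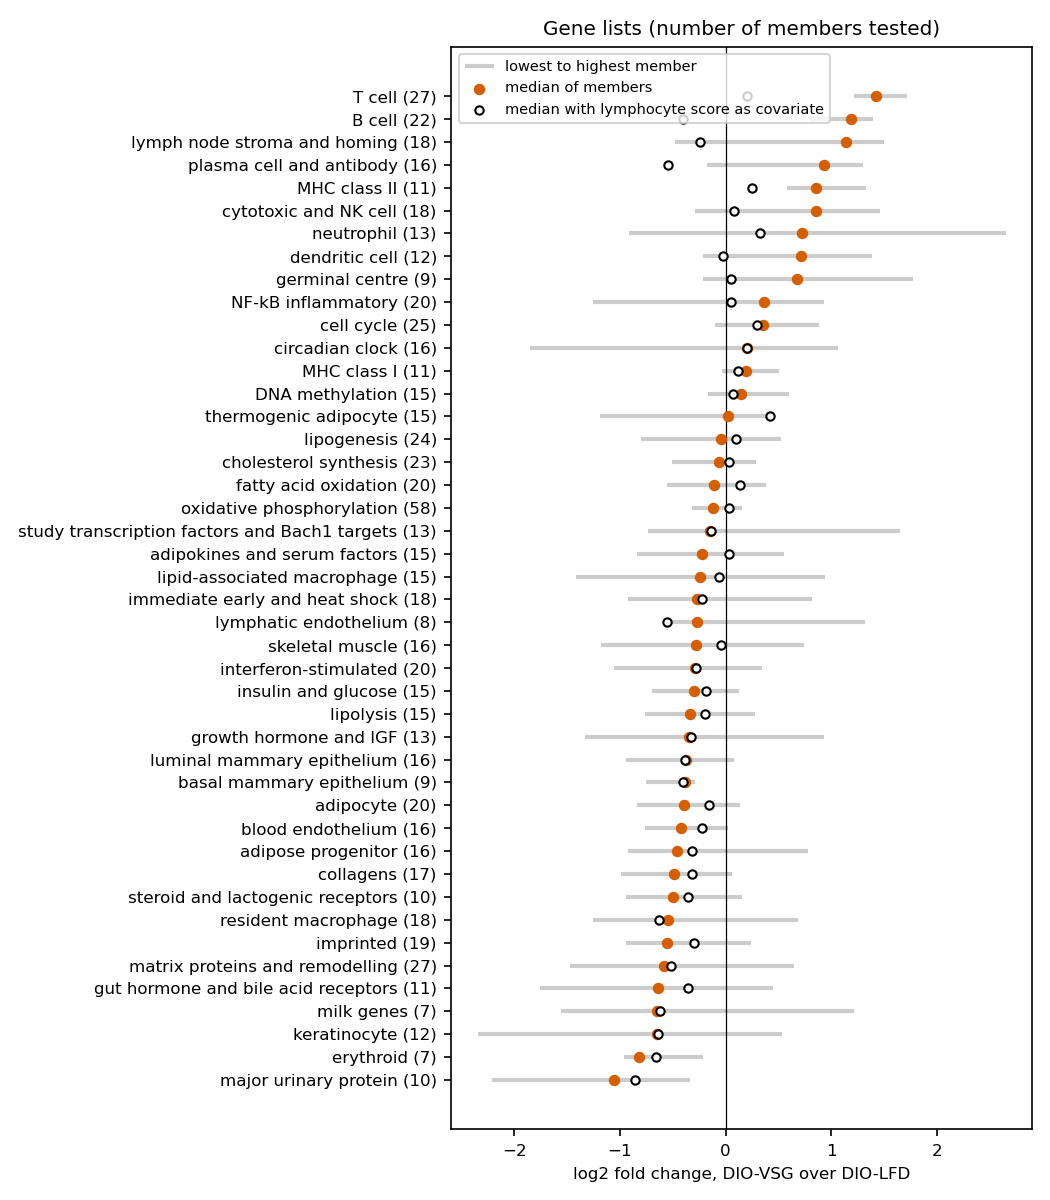
Median log2 fold change of DIO-VSG over DIO-LFD for each gene list (filled points), its lowest and highest member (grey lines) and the median with the lymphocyte score as covariate (open points). Lymphoid lists lie at the top right and return toward 0 or below with the covariate, while matrix, macrophage and mammary lists keep their medians below 0.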

How the data were processed

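RNA-Seq of mammary fat from 16 mice, 4 in each of 4 groups named in the labels, was used. The deposited table was described by the authors as normalized counts, but its values are log2 values after a variance-stabilizing transformation from DESeq2 (5.36 to 21.8). The methods name STAR, salmon, Gencode and GRCm38.p4, whereas the submitters' processing notes list TopHat2 2.0.7, HTSeq 0.5.3p9 and mm10, so the counter could not be settled. The transformation was inverted to normalized counts, and multiplying by each library's size factor (0.904 to 1.22) gave whole reads for 100.0% of values within 0.05 read. Differences were fitted with limma 3.58.1 (R 4.3.3, limma-trend) on log2(count + 1) in all 16 libraries, by group alone, with Benjamini-Hochberg adjustment over 21218 genes. Fold changes are on that log2(value + 1) scale, which understates those of low genes. Spread between mice sets the P values. Members and lists were chosen with earlier results of these data known. The text names, from the lists it describes, the first 2 members and the one with the smallest P value, then the 10 smallest P values without overlap in each direction, and the 5 largest differences at a mean of at least 100 normalized counts. Of these, 3 genes are not reported here. Promoters came from RefSeq for 27025 symbols. GENCODE annotation matched 95.7% of symbols once. Alternatives were a pseudocount of 0.5 or 5, the deposited values, no or a stricter filter, quantile scaling, voom, array weights, 8 libraries, a replicate block, a lymphocyte covariate, no predicted genes, each library left out and, added after the data were seen, GC correction. The fit was also tested on simulated data, where it missed part of the genes changed 2-fold. The recovery asked for at that size was not met and was dropped after this was seen, with the fit unchanged. No batch was given.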

Additional observations from a re-analysis of the deposited data

Results flagged for a closer look

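In groups of 4 libraries, a gene or list score is named here when its highest or lowest library lay so far from the nearest of the other 3 that the gap, as a share of the group's range, exceeded Dixon's critical value for 4 samples. Of 318 groups of values looked at (2 for each of 115 genes and 44 list scores), 21 met this, and chance alone flags about 1 in 20.

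DIO-LFD replicate 1 stood apart most often. It was low for Btk (686 normalized counts) and for the scores of B cell (−0.24) and MHC class II genes (−0.79). It was high for Lipe (91674), Insr (24623), Fos (4255) and Adamts4 (2469). DIO-VSG replicate 1 was high for Cd3e (4974), Ms4a4b (7156), H2-K1 (80099.6) and the T cell score (2.06), and low for Fasn (60159). DIO-VSG replicate 2 was low for Plin1 (39525) and for the score of immediate early and heat shock genes (−0.32), and high for Prss23os (160.1). DIO-VSG replicate 3 was low for Angptl4 (8979) and Thbs2 (3764). DIO-VSG replicate 4 was high for the steroid and lactogenic receptor score (0.34). DIO-LFD replicate 2 was low for Trem2 (72.4) and high for Mcm2 (1264). DIO-LFD replicate 4 was high for the skeletal muscle score (5.62).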

How the results depend on the processing

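Few replicates and unequal spread limit this comparison: 4 libraries a group, in which CON-LFD and DIO-HFD varied more than the groups compared. The number of genes past the adjusted limma threshold was 0 with all 16 libraries, 184 with array weights (98 higher, 86 lower) and 1533 with 8 libraries, and 0 under every other alternative and without any 1 library (0 to 0). At an unadjusted P value of 0.05 the count was 2061, 5500 with array weights, 5364 with 8 libraries (3318 higher, 2046 lower), and 1085 (without DIO-VSG replicate 1) to 2816 (without DIO-HFD replicate 1). Without DIO-VSG replicate 3 it was 1367. With GC correction, added after the data were seen, it was 1565. The cause of these shifts was not tested. The count without overlap in either direction stayed within 1.5 times of 3982 under every alternative run for it, but the lower part of it, 1236, was 1444 to 1945 without 1 library of the groups compared, where fewer libraries have to separate. Deviations of same-numbered DIO-VSG and DIO-LFD libraries correlated at 0.021 to 0.17, and those of differently numbered ones at −0.153 to 0.133. Same-numbered values were thus all above 0, but the ranges overlap and cannot settle whether library numbers pair the mice. A limma fit with a replicate block called 0 genes, and 1869 fell under 0.05 before adjustment. Genes whose median is low in counts, such as Ftcd, Camp and Csn2, are limited by depth.

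Directions turned for some genes with small or variable differences (log2 fold changes). With the lymphocyte covariate Cd4 was at −0.0063, Flt3 at −0.050, Ccl19 at −0.12, Jchain at −0.60, Cxcl13 at −0.62, Ms4a1 at −0.63, Ighg2b at −1.78, Adipoq at 0.066, Acaca at 0.11 and Ucp1 at 0.88. Array weights gave −0.027 for Ighg2b, −0.19 for Fasn and 0.83 for Ucp1. Ucp1 was at 0.48 on the deposited values and 0.020 with a pseudocount of 5. Quantile scaling gave 0.032 for Adipoq and 0.045 for Acaca, and GC correction −0.083 for Fxr1. Over the fits without 1 library, Ucp1 ran from −1.80 to 1.67, Cidea from −0.80 to 0.75, Acaca from −0.48 to 0.53, Col1a1 from −0.89 to 0.28, Col3a1 from −1.17 to 0.39, Fasn from −0.79 to 1.14 and Fxr1 from −0.024 to 0.095. Of 115 named genes, 115 kept their direction under voom and under the replicate block.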

Other observations

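Gene families that the lists do not cover were read by symbol, after the values had been seen, so their counts carry no test. Over all genes 12.9% were higher and 5.83% lower without overlap. Cytosolic ribosomal protein genes, whose products build the ribosome, were higher in DIO-VSG in 74 of 81, and 51 of them did not overlap, with a median log2 fold change of 0.26 and of 0.13 with the lymphocyte score as covariate. Mitochondrial ribosomal protein genes leaned the other way, with 59 of 77 lower and a median of −0.081. The Gimap genes, small GTPases of lymphocyte survival, were higher without overlap in 9 of 9 (median 1.00). Variable segments of the T cell receptor were higher in 72 of 73, 49 without overlap (median 1.45), and those of immunoglobulins in 173 of 180, 60 without overlap (median 1.16). Zinc finger genes named Zfp were higher in 237 of 351, with a median of 0.10. Wnt and frizzled genes, which carry a growth signal of epithelium and stroma, were lower in 23 of 25 (median −0.52), and keratins in 20 of 24 (median −0.54). Chemokines had no common direction, with 13 of 32 higher.

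Lists not described above are given by their counts. Of 19 imprinted genes 18 were lower, 3 without overlap, against 5.83% of all genes (median −0.55). All 10 major urinary protein genes were lower (median −1.06) and 0 did not overlap. Without DIO-LFD replicate 1 the median was −2.29 and 5 did not overlap, where 1877 of all 21218 genes were lower without overlap. Without DIO-LFD replicate 4 the median was −0.53. For skeletal muscle genes 14 of 16 were lower (median −0.28), but without DIO-LFD replicate 4 the median was 1.41. Red cell genes were lower in 7 of 7 (median −0.82), and at 0.24 without DIO-LFD replicate 1. Clock genes were higher in 9 of 16 (median 0.21, or −0.085 without DIO-LFD replicate 4), cholesterol synthesis genes in 8 of 23 (median −0.065, or 0.16 without DIO-LFD replicate 4) and fatty acid oxidation genes in 4 of 20 (median −0.11, or 0.053 without DIO-VSG replicate 2). Germinal centre genes were higher in 6 of 9 (median 0.68, from 0.38 without DIO-VSG replicate 1 to 1.20 without DIO-LFD replicate 2), lymphatic endothelium genes in 3 of 8 (median −0.27, or −0.0091 without DIO-LFD replicate 1), secreted adipokine and serum factor genes in 5 of 15 (median −0.22, or −0.034 without DIO-VSG replicate 3), and skin keratinocyte genes in 4 of 12 (median −0.65, or −0.26 without DIO-LFD replicate 2).

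Fold changes followed the GC content of the gene. Over 20375 genes with a value (96.0% of those tested), the median log2 fold change was 0.10 in the fifth of genes with the lowest GC content (28.1% to 43.7%), 0.016, −0.022 and −0.081 in the next ones and −0.14 in the fifth with the highest (55.1% to 86.2%). With the lymphocyte score as covariate the lowest and highest were at 0.088 and −0.10. Libraries were closest within DIO-VSG, where the median absolute log2 difference over genes ran from 0.18 to 0.24 between pairs, against 0.20 to 0.32 within DIO-LFD and 0.24 to 0.39 between the groups.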
